A study of Mus musculus with 8 samples.

Results

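Nuclear tRNAs for lysine and arginine were examined in small RNA libraries of mouse bone marrow-derived macrophages (BMDMs). They were chosen by name, as the features of the UCSC tRNA type whose name carries Lys or Arg. The rule uses no measured level, but it was set with earlier results of these data known. A feature is 1 annotated gene copy here. There were 53 such copies, 29 for Lys and 24 for Arg, among 429 nuclear tRNA features and 3514 features in either deposited table. All 53 were listed in both tables. The Lys copies carry 2 anticodons, LysCTT with 19 copies and LysTTT with 10. The Arg copies carry 5 anticodons, ArgACG with 6 copies, ArgCCG with 3, and ArgCCT, ArgTCG and ArgTCT with 5 each.

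The macrophages came from C57BL/6J mice and were kept with Macrophage-Colony Stimulating Factor (control) or without it for 36 h (M-CSF withdrawal). M-CSF is the growth factor that keeps these cells alive, and its removal served as a pro-apoptotic stimulus. Each condition had 2 libraries in an Ion Proton run, called total RNA here after the methods, while the labels call this extract small RNA. In a SOLiD run each condition had 1 library of total RNA and 1 made from RNA selected for a length of 25 to 40 nt. The methods call the Ion Proton replicates biological. Whether they came from separate animals or separate cultures is not stated, and a p-value measures only the spread between these libraries. In whole cultures, fewer cells of a type and less RNA per cell cannot be told apart.

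A tRNA reads a codon of the mRNA through its anticodon and brings the matching amino acid to the ribosome, and lysine and arginine are both basic amino acids. Each anticodon is served by several gene copies, many of which give the same mature tRNA. The genes are transcribed by RNA polymerase III from promoter elements that lie inside the gene, the A box and the B box. Under stress the ribonuclease angiogenin cuts mature tRNAs in the anticodon loop, which leaves a 5′ and a 3′ piece, and shorter tRNA fragments are also found in cells. A small RNA library reads such fragments more readily than the folded, modified full-length tRNA, so that the values here are reads on a tRNA gene and not levels of intact or charged tRNA.

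Of the 53 copies, 42 were intergenic in the GENCODE annotation, 8 lay in an intron and 3 overlapped an exon, and 48 were 73 nt long. A dense group of 12 copies lay on chromosome 13 between 21 and 24 Mb, the large histone and tRNA gene cluster, and 5 lay close together on chromosome 17. By coordinates, 50 copies matched a RefSeq tRNA gene. RefSeq names 8 of the 10 LysTTT copies as CTT genes, so that the anticodon used here is the one in the deposited feature names.

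The genomic sequence of 2 copies could be read from a GENCODE transcript of the same strand (GRCm38, the build also called mm10). They are shown because only their sequences were at hand, and each was also the most-read copy of its anticodon in 1 of the runs. Capitals mark the anticodon, which starts at base 34 of both.
chr7.tRNA389-ArgTCG: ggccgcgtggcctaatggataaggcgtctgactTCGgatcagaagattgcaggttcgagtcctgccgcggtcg
chr3.tRNA628-ArgTCT: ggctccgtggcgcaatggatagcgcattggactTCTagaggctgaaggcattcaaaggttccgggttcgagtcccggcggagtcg

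The ArgTCG copy lies on the plus strand at chr7:79466419-79466491, inside an exon of the non-coding locus Gm10616 and 57 bp from Polg, the mitochondrial DNA polymerase gene. The ArgTCT copy lies on the minus strand at chr3:122292948-122293032, inside a retained-intron transcript of Gm17494. It is longer than the ArgTCG copy by 12 nt, since most ArgTCT genes hold a short intron just after the anticodon. Their longest shared stretch is ggttcgagtcc, 11 nt in the T arm that corresponds to the B box. The other ArgTCT copies measured 74 nt on chromosome 1, 86 nt on chromosomes 13 and 19, and 87 nt on chromosome 11.

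Reads on listed features numbered from 6053130 to 7760142 in the Ion Proton libraries, 5772453 (control) and 12178454 (M-CSF withdrawal) in the SOLiD total RNA libraries, and 8910972 and 4039837 in the size selected ones. Ion Proton values are given as counts per 1000000 reads on listed features (CPM) and SOLiD values as reads per 1000000 (RPM), as the authors deposited them. The myeloid miR-223-3p was present in every library, between 66.9 and 96.5 CPM in the Ion Proton run and between 4473 and 11725 RPM in the SOLiD run. The myeloid miR-342-3p was also present in every library, as was miR-21a-5p, while the myeloid miR-142a-3p and miR-142a-5p were not listed in the SOLiD run. The 4 SOLiD libraries also held miRNAs of other cell types, such as the epithelial miR-205-5p between 3547 and 5586 RPM and the red cell miR-451a between 2659 and 3988 RPM. In the Ion Proton run miR-451a had between 1.25 and 6.44 CPM. The other red cell markers were far lower in the SOLiD libraries, miR-144-3p between 1.46 and 2.97 RPM and miR-144-5p between 22.0 and 34.7 RPM. The 5 epithelial markers summed to between 6343 and 9642 RPM there and to between 7.76 and 10.6 CPM in the Ion Proton run, where miR-205-5p was not listed. Of the lymphocyte markers, miR-181a-5p was high in both runs, between 6303 and 9722 CPM and between 3913 and 8279 RPM. The lymphocyte miR-150-5p had at most 1.81 CPM in the Ion Proton run and between 407 and 601 RPM in the SOLiD run. The SOLiD values below come from the libraries with these epithelial and red cell miRNAs, and the Ion Proton values are given apart from them. The part of RNA from other cell types in either result was not tested. The RNA integrity number (RIN) of the SOLiD total RNA was 8.4 for the control library and 7.5 for the other. It was 8.4 to 8.9 in the Ion Proton run, and 2.7 (control) and 2.6 (M-CSF withdrawal) for the size selected SOLiD libraries.

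In the Ion Proton run, Lys and Arg tRNA reads were 6859 and 6631 CPM in the control libraries and 7796 and 7660.0 CPM after M-CSF withdrawal. Both withdrawal libraries lay above both controls, on average by 0.0983 percentage points of the listed reads (0.675% ± 0.0162 against 0.773% ± 0.00961, SD, n = 2 each). An exact two-sided permutation test gave p = 0.333, the smallest value that 2 libraries against 2 allow. All nuclear tRNA reads together differed far more between the same libraries, from 26.6% ± 0.0801 (SD, n = 2) to 45.9% ± 1.74 (SD, n = 2) of listed reads. The Lys and Arg share of nuclear tRNA reads was therefore lower after M-CSF withdrawal, 1.68% ± 0.0431 (SD, n = 2) against 2.53% ± 0.0531 (SD, n = 2), with the groups apart (exact permutation p = 0.333).

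**Figure D1:**
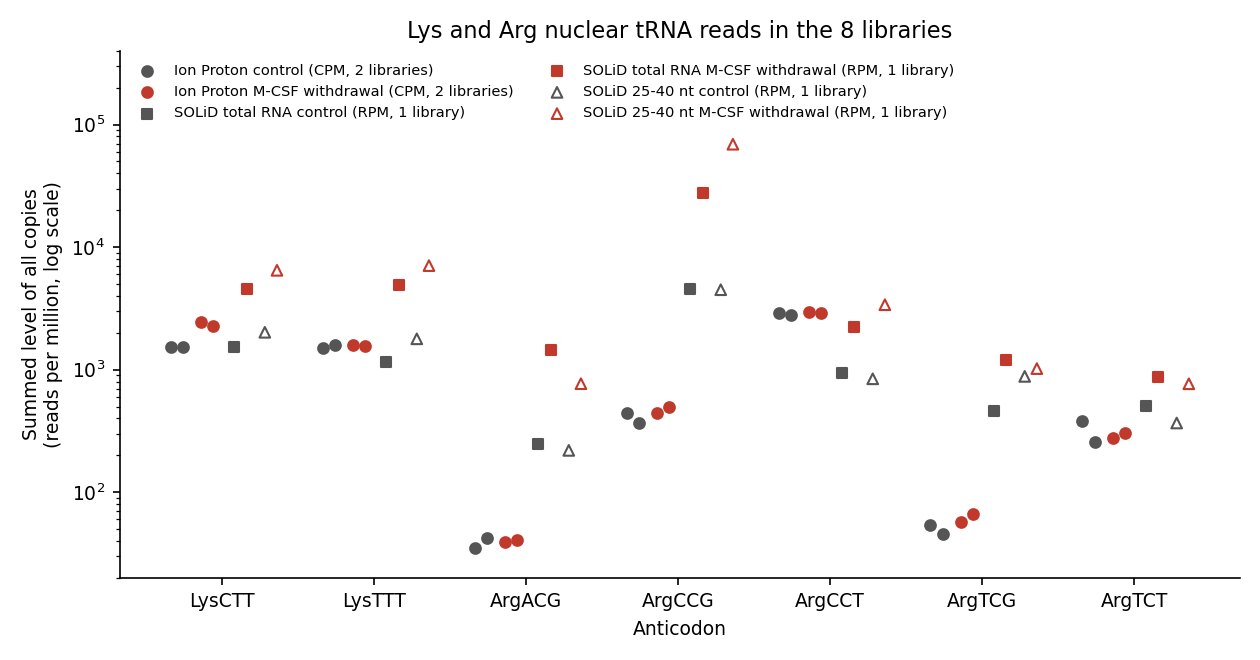
Summed level of all copies of each anticodon (CPM or RPM, log scale) in each of the 8 libraries, with control libraries in grey, M-CSF withdrawal libraries in red, circles for the Ion Proton run, squares for SOLiD total RNA and triangles for SOLiD 25 to 40 nt RNA. LysCTT has both Ion Proton withdrawal libraries above both controls, at 2434 and 2272 CPM against 1542 and 1530.2 CPM, and ArgCCG has the highest SOLiD value, 69059 RPM.

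Of the 7 anticodons, LysCTT was the one that passed the test in the Ion Proton run, with copies summed and with the most-read copy alone. LysCTT decodes AAG, a common lysine codon. Its copies summed to 1542 and 1530.2 CPM in the controls and to 2434 and 2272 CPM in the withdrawal libraries. Both withdrawal libraries stood well above both controls, at 1.53-fold of the control mean. By the quasi-likelihood test of edgeR this was a log2 fold change of 0.81 (standard error, SE, 0.0769, Benjamini-Hochberg adjusted p = 0.0067). Over all features of that fit, 7.47% were called higher. The most-read copy, chr12.tRNA796-LysCTT, had 211 and 201 CPM in the controls and 300.2 and 267 CPM after M-CSF withdrawal, again without overlap. Its log2 fold change was 0.68 (SE 0.103, adjusted p = 0.0252, edgeR), where 7.35% of features were called higher. This second call was lost without control replicate 1, control replicate 2 or withdrawal replicate 1, with adjusted p from 0.0565 to 0.0839.

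The other Lys anticodon, LysTTT, which decodes AAA, did not pass. It had 1489 and 1589.6 CPM in the controls and 1575 and 1556 CPM in the withdrawal libraries, so that the groups overlapped. The log2 fold change was 0.22 (SE 0.0838, adjusted p = 0.199, edgeR). The 2 Lys anticodons were therefore almost equal in control cells, each with 22.8% of the Lys and Arg reads, and stood apart after M-CSF withdrawal, with 30.5% for LysCTT and 20.3% for LysTTT.

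None of the 5 Arg anticodon sums passed the edgeR test in the Ion Proton run, while 3 had an unadjusted p below the threshold and DESeq2 called 1, ArgCCG. ArgCCT, which decodes AGG, was the most read of all 7 and ranked 9 among 51 nuclear anticodons in control cells. It had 2916 and 2801 CPM in the controls and 2968 and 2925 CPM in the withdrawal libraries, groups that lay close together without overlap. Its log2 fold change was 0.24 (SE 0.0708, adjusted p = 0.121, edgeR). ArgCCG, which decodes CGG, had 443 and 364 CPM in the controls and 444 and 497 CPM in the withdrawal libraries, so that its lower withdrawal library nearly met the higher control. Its log2 fold change was 0.42 (SE 0.136, adjusted p = 0.15, edgeR).

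ArgTCT, which decodes AGA, had 381 and 258 CPM in control cells, the widest relative gap between control replicates among the 7, and 277 and 303 CPM after M-CSF withdrawal, between the controls. This fold change was near 0 and changed sign with the scaling, at 0.06 with TMM factors (adjusted p = 0.885, edgeR) and -0.14 with library size alone. ArgTCG and ArgACG, which decode CGA and CGU, were the scarcest. ArgTCG had 54.3 and 45.3 CPM in the controls and 56.9 and 66.2 CPM after M-CSF withdrawal, with a log2 fold change of 0.51 (SE 0.161, adjusted p = 0.148, edgeR). ArgACG stayed between 35.1 and 42.1 CPM in all 4 libraries, with overlapping groups.

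With copies summed, the reads of Arg copies thus exceeded those of Lys copies in the controls and met them in the withdrawal libraries. The ratio of Arg to Lys reads was 1.26 and 1.13 in the control libraries and 0.944 and 1.00 after M-CSF withdrawal. The log2 ratio was lower by 0.29 on average (exact permutation p = 0.333). These values rest on sums over copies, which would count a read more than once if it was counted at each of several copies. With most-read copies only, the log2 ratio was 1.582 and 1.399 in the controls and 1.229 and 1.398 after M-CSF withdrawal. In that form Arg stayed above Lys in all 4 libraries, and the groups nearly met.

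The direction of these changes depended on what the reads were scaled to. With TMM factors over all features, the log2 fold changes of the 7 sums ran from 0.06 to 0.81. The other 44 nuclear anticodons had a median of 0.86 in the same fit, with 26 called higher and 0 lower. When the libraries were scaled to the reads of the other nuclear tRNAs, a setting chosen after seeing the data, all 7 sums had negative log2 fold changes, and 5 passed the test as lower, where 29.9% of all features were called lower. The values were -0.77 for LysTTT (adjusted p = 0.00332), -0.75 for ArgCCT (0.00258), -0.93 for ArgTCT (0.0292), -0.73 for ArgACG (0.0247) and -0.57 for ArgCCG (0.0445), from edgeR. LysCTT at -0.18 (adjusted p = 0.161) and ArgTCG at -0.49 (adjusted p = 0.101) did not pass. With most-read copies 4 of the 7 passed as lower, where 30% of all features did. In the table of sums this scaling moved the median of all features to -0.96, from 0.02. All 7 sums lay above that median.

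**Figure D2:**
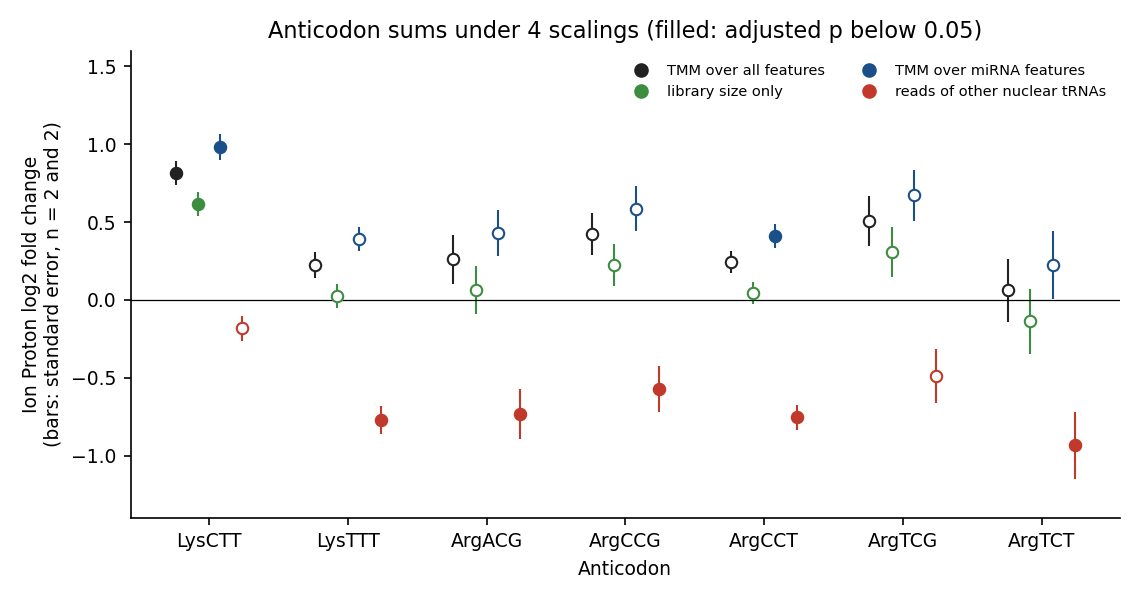
Ion Proton log2 fold change (withdrawal over control, n = 2 and 2, bars are standard errors from edgeR) of the 7 anticodon sums under 4 scalings, with filled points for an adjusted p below 0.05. LysCTT is filled under 3 scalings and open at -0.18 when scaled to the other nuclear tRNAs, while 5 other anticodons are filled below 0 under that scaling.

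Copy by copy, 9 of the 53 passed the test as higher in the Ion Proton run, which is 17.0%, and 0 as lower. At an unadjusted p under 0.05, 11 copies were higher and 0 lower (edgeR), and DESeq2 called the same number higher as edgeR, 9, and 0 lower. Over all features 15.7% were called higher, and of the other nuclear tRNA copies 207 of 368 were. By this count the Lys and Arg copies were close to the background of all features. The difference from the other nuclear tRNA copies was not tested. All 9 called copies were LysCTT genes. With TMM factors over miRNA features only, 24 copies were called higher and 0 lower, and with scaling to the other nuclear tRNAs 0 were higher and 25 lower, where 29.7% of all features were called lower. With TMM factors over all 2029 features the calls were 318 higher and 182 lower, against 413 and 80 with factors over miRNA features only.

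The 9 LysCTT copies fell into sets with nearly equal counts. One pair, chr12.tRNA796 and chr9.tRNA1035, differed by at most 1.01-fold in every Ion Proton library, and its log2 fold changes were 0.52 and 0.51. The other 7 copies (chr3.tRNA292, chr3.tRNA748, chr11.tRNA2023, chr13.tRNA103, chr17.tRNA81, chr17.tRNA83 and chr17.tRNA999) differed by at most 1.06-fold and had log2 fold changes from 0.75 to 0.77. The largest change among Lys copies with a mean of at least 10 CPM was that of chr3.tRNA748-LysCTT, with 141 and 144 CPM in the controls and 240.1 and 228 CPM after M-CSF withdrawal (log2 fold change 0.77, standard error 0.0764, adjusted p = 0.00455, edgeR). The smallest was that of chr7.tRNA1280-LysTTT at 0.03. A read could be reported at up to 10 places, and whether it was then counted at each copy is not stated, so that these calls do not stand for 9 independent genes.

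The ArgCCT copies showed the same equality. In the first control library, chr11.tRNA1022 and chrX.tRNA321 had 4952 reads each and chr11.tRNA1234 had 4955. The 3 copies differed by at most 1.04-fold in all Ion Proton libraries, but by 1.69-fold to 2.07-fold in the SOLiD libraries, which were mapped by another program. LysTTT had 8 copies within 1.19-fold of each other in the Ion Proton run, and the same 8 differed by 6.54-fold to 17.8-fold in the SOLiD libraries. For these anticodons a single copy can therefore be singled out less well in the Ion Proton run. The LysCTT sets stayed nearly equal in the SOLiD libraries too, the pair within 1.01-fold and the 7 copies within 1.02-fold to 1.18-fold.

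The most-read LysTTT copy was chr1.tRNA485 in the Ion Proton run, with 191 and 201 CPM in the controls and 206 and 203 CPM after M-CSF withdrawal. In the SOLiD run it was chr19.tRNA107, with 199.9 and 1061 RPM in total RNA, and chr13.tRNA1012 was nearly equal to it there, at 203 and 1056 RPM. The LysTTT copies chr1.tRNA1192, chr11.tRNA1816 and chr19.tRNA641 held from 12.98% to 14.1% of the LysTTT reads of SOLiD total RNA, but chr13.tRNA83 held 1.73%, although it held 11.6% in the Ion Proton run. Of the ArgCCT copies, chr6.tRNA107, in an intron of Fmc1, was the most read in the SOLiD run, with 397 and 903 RPM and 41.0% of the ArgCCT reads of total RNA. In the Ion Proton run it had 504 and 472 CPM in the controls and 515 and 511 CPM after M-CSF withdrawal, and chr17.tRNA994 was close to it, at 465 to 502 CPM. None of these copies passed the test (edgeR).

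**Figure D3:**
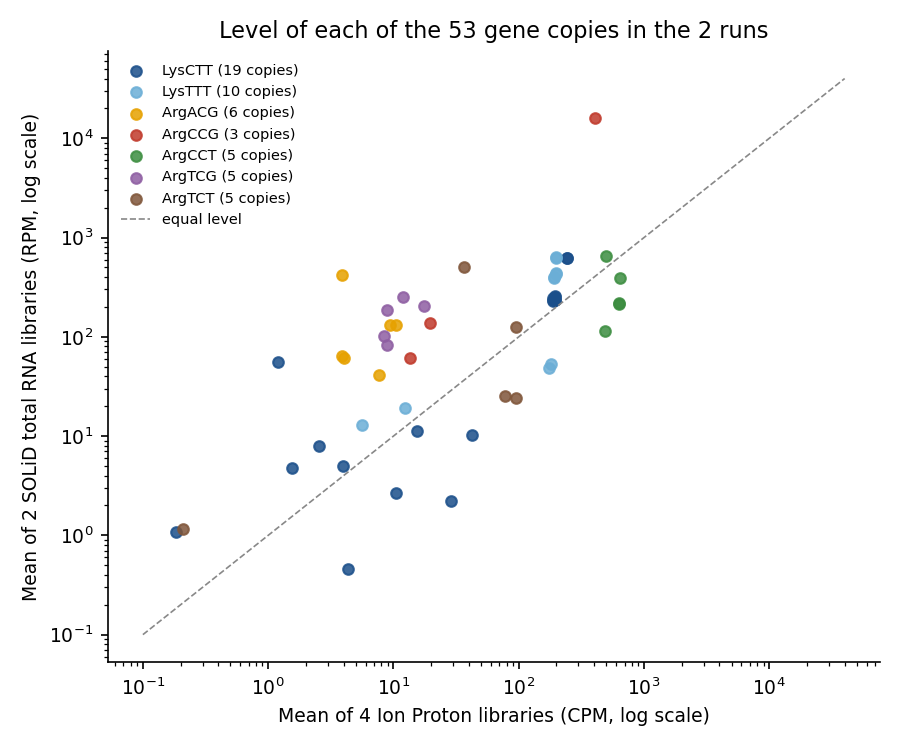
Mean level of each of the 53 gene copies in the 4 Ion Proton libraries (CPM, log scale) against the mean of the 2 SOLiD total RNA libraries (RPM, log scale), coloured by anticodon, with a dashed line at equal level. Copies of ArgCCT, LysTTT and LysCTT stack in columns of equal Ion Proton level, and 1 ArgCCG copy, chr11.tRNA945, stands far above the line.

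The ArgTCT copies stood in another order in each run. By Ion Proton counts chr19.tRNA639-ArgTCT led with 124 and 79.9 CPM in the controls and 85.9 and 91.0 CPM after M-CSF withdrawal, and chr11.tRNA1818-ArgTCT (118 and 86.3, then 82.0 and 92.7 CPM) and chr13.tRNA997-ArgTCT (99.9 and 68.4, then 65.5 and 78.0 CPM) followed. The log2 fold changes of these 3 copies lay between -0.18 and -0.16, the lowest among Arg copies with a mean of 10 CPM or more, and none passed the test. In the SOLiD run chr3.tRNA628-ArgTCT, shown above, held 74.3% of the ArgTCT reads of total RNA, with 378 RPM in the control library and 639 RPM in the withdrawal library. In the Ion Proton run the same copy had 37.5 and 23.4 CPM in the controls and 43.9 and 41.0 CPM after M-CSF withdrawal, both above the controls, with a log2 fold change of 0.53 (SE 0.244, adjusted p = 0.218, edgeR). The fifth copy, chr1.tRNA730-ArgTCT, lies in an intron of Aim2 and matches the RefSeq gene n-TRtct5, known for its expression in the nervous system. It had 4 and 0 reads in the control libraries and 1 and 1 after M-CSF withdrawal, so that 3 of the 4 libraries lay below the limit of 3 reads.

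Among the ArgTCG copies, chr7.tRNA389, the first sequence shown, led the Ion Proton run with 15.3 and 11.8 CPM in the controls and 19.3 and 23.5 CPM after M-CSF withdrawal. Its groups did not overlap, and its log2 fold change of 0.71 was the largest among Arg copies with a mean of at least 10 CPM (SE 0.207, adjusted p = 0.0769, edgeR). In SOLiD total RNA chr11.tRNA1023-ArgTCG was read more often, at a mean of 252 RPM against 206 RPM, while in 25 to 40 nt RNA both were close, at 243 and 251 RPM. The other ArgTCG copies, chr13.tRNA74, chr13.tRNA960 and chr13.tRNA961, lay between 6.96 and 10.1 CPM in the Ion Proton run. Of the 6 ArgACG copies, chr13.tRNA985 led in the Ion Proton run with 8.89 to 12.1 CPM, and chr14.tRNA210, which lies 171 bp from the gene of the arginine methyltransferase Prmt5, led in the SOLiD run and held 49.1% of the ArgACG reads of total RNA there. The ArgACG copies chr9.tRNA783, chr3.tRNA1040, chr13.tRNA963 and chr13.tRNA965 lay between 3.53 and 10.3 CPM in the Ion Proton run.

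In the SOLiD run, Lys and Arg reads went from 9421 RPM (95% Wilson interval 9342 to 9499.7) in the control library of total RNA to 42915 RPM (42801 to 43029) after M-CSF withdrawal, 4.56-fold. There is 1 library of each condition, so that the difference has no replicate check and the intervals cover counting error only. Their share of nuclear tRNA reads went from 9.25% to 10.2%. This rise rested on ArgCCG, described below. The other 6 anticodons together went up 3.14-fold, less than the 4.15-fold of all nuclear tRNA reads, so that their share was lower. The ratio of Arg to Lys reads was 2.48 in the control library and 3.54 after M-CSF withdrawal, the opposite direction to the Ion Proton run. This rise also rested on ArgCCG. The same 6 anticodons went up by less than the 3.49-fold of the Lys reads among them. Without ArgCCG, Arg reads therefore fell against Lys reads, the same direction as in the Ion Proton run.

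ArgCCG carried most of these reads. Its copies summed to 4573 RPM (4518 to 4628) in the control library and 27707 RPM (27615 to 27799) in the withdrawal library, 6.06-fold higher and far outside both intervals. Of all Lys and Arg reads it held 48.5% and then 64.6%, and it ranked 6 and then 4 among the 51 nuclear anticodons. A single copy, chr11.tRNA945-ArgCCG (RefSeq n-TRccg1, chr11:107012866-107012938, plus strand, intergenic), held 98.8% of the ArgCCG reads, with 4448 RPM in the control library and 27438 RPM in the withdrawal library. The same copy had 416 and 335 CPM in the Ion Proton controls and 408 and 458 CPM after M-CSF withdrawal, with a log2 fold change of 0.26 (SE 0.140, adjusted p = 0.284, edgeR). The ArgCCG sum of the SOLiD library thus stood at 11.3 times the Ion Proton mean for control and at 58.8 times for withdrawal. The other ArgCCG copies, chr17.tRNA993 and chr13.tRNA1009, stayed at or below 193 RPM in total RNA. Without ArgCCG, the other 6 anticodons summed to 4848 RPM in the control library and 15208 RPM in the withdrawal library, 3.14-fold.

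The other anticodons were also read more often in the withdrawal library. ArgACG went from 247 to 1451 RPM (5.87-fold), LysTTT from 1163 to 4938 RPM (4.24-fold) and LysCTT from 1542 to 4511 RPM (2.92-fold). In the Ion Proton run LysCTT stood above the other two instead. ArgTCG went from 462 to 1203 RPM (2.61-fold), ArgCCT from 931 to 2239 RPM (2.40-fold) and ArgTCT from 502 to 867 RPM (1.73-fold). The log2 ratios of the 7 sums (RPM plus 1) ran from 0.79 to 2.60. They had a median of 1.55, beside a median of 2.03 over the 43 other nuclear anticodons with a mean of at least 10 RPM and 0.51 over all 1086 features at that level. At the level of copies, 38 of the 45 with a mean of at least 10 RPM were at least 2-fold higher and 0 at least 2-fold lower, while 42.4% of all such features and 249 of 310 such copies of other nuclear tRNAs were at least 2-fold higher.

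**Figure D4:**
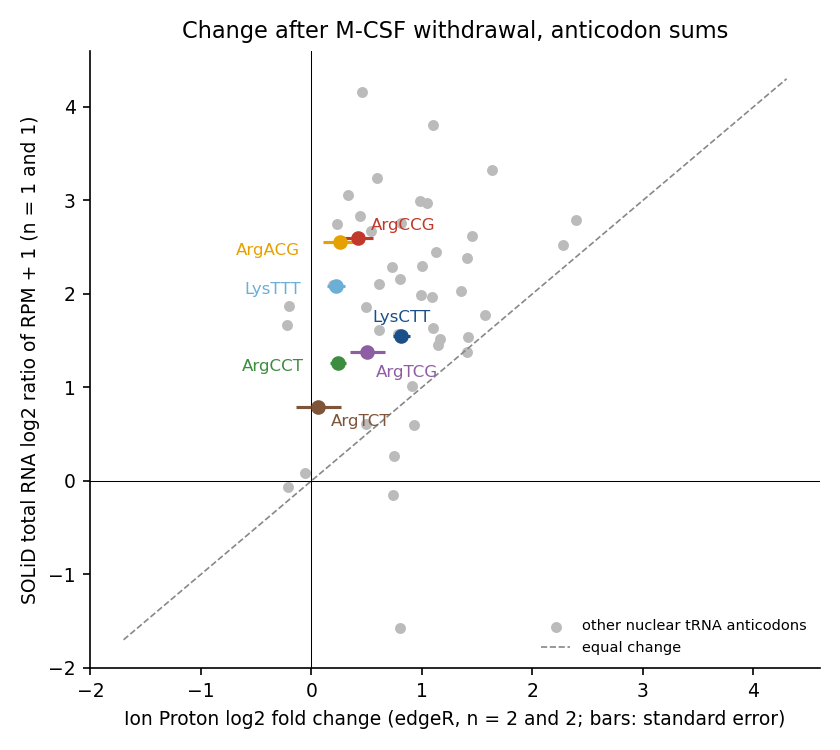
Log2 fold change of each nuclear tRNA anticodon in the Ion Proton run (edgeR, n = 2 and 2, bars are standard errors) against its log2 ratio in SOLiD total RNA (RPM plus 1, n = 1 and 1), with Lys and Arg anticodons coloured, other anticodons in grey and a dashed line at equal change. The 7 Lys and Arg anticodons lie between 0.06 and 0.81 on the horizontal axis and between 0.79 and 2.60 on the vertical axis, all above the line, as are most of the grey points.

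With the 6 libraries of total RNA in 1 limma model with terms for treatment and run, LysCTT passed the test with copies summed, at a log2 fold change of 0.93 (SE 0.216, adjusted p = 0.0417). In simulated data with 4-fold changes, scaled as here, 19.6% of the calls of this fit were of unchanged features, more than the threshold of 0.05 allows. Of all features in that fit, 6.21% were called higher, and of the other 44 nuclear anticodons 19 were. The median log2 fold change was 1.13 over those 44 and 0.71 over the 7. With the most-read copy LysCTT did not pass (0.80, adjusted p = 0.0721), and 0 of the 7 anticodons did. There 6.14% of all features and 19 of the other 44 nuclear anticodons were called higher. Of the 7 most-read copies, 2 had an unadjusted p under 0.05 (LysCTT and ArgTCT, limma), and voom called 2. The LysCTT sum was no longer called without any 1 of the 4 Ion Proton libraries, with adjusted p from 0.0907 to 0.14. The other 6 sums had log2 fold changes from 0.19 for ArgTCT to 1.02 for ArgCCG, with adjusted p from 0.139 to 0.631.

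The difference in change between the runs was tested with a run by treatment term, which was chosen after seeing the data and assumes that the lone SOLiD libraries vary as the Ion Proton replicates do. The change was larger in the SOLiD run for LysTTT by 2.06 on the log2 scale (adjusted p = 0.00154), ArgACG by 2.48 (0.00474), ArgCCG by 2.37 (0.00393), ArgCCT by 1.22 (0.00474) and LysCTT by 0.93 (0.0146), by limma with Benjamini-Hochberg adjustment. Over all features 8.53% were called larger in the SOLiD run. ArgTCG at 1.08 (adjusted p = 0.0601) and ArgTCT at 0.90 (adjusted p = 0.166) did not pass. Of the other 44 nuclear anticodons, 23 were called larger in the SOLiD run and 1 smaller, with a median of 1.19 beside 1.22 for the 7. The runs differ in platform, mapping program, library kit and RNA sample, which cannot be told apart.

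In RNA of 25 to 40 nt, Lys and Arg reads went from 10597 RPM (10530.3 to 10665) in the control library to 88520.4 RPM (88244 to 88798) after M-CSF withdrawal, 8.35-fold. ArgCCG alone went from 4488 RPM (4444 to 4532) to 69059 RPM (68812 to 69306), 15.4-fold, and held 78.0% of the Lys and Arg reads after M-CSF withdrawal. It was the most read of the 51 nuclear anticodons in that library, and its log2 ratio of 3.94 ranked 1 among them. Without ArgCCG the other 6 sums went from 6109 to 19462 RPM, 3.19-fold, close to their change in total RNA.

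The rest moved by less. ArgCCT went from 842 to 3385 RPM (4.02-fold), LysTTT from 1784 to 7059 RPM (3.96-fold), ArgACG from 219 to 768 RPM (3.50-fold), LysCTT from 2017 to 6464 RPM (3.21-fold) and ArgTCT from 367 to 766 RPM (2.09-fold). ArgTCG was the exception, with 881 RPM (862 to 901) and 1019.6 RPM (989 to 1051), 1.16-fold, and its copy chr7.tRNA389 went the other way, from 302 to 200.01 RPM. Of the 43 copies with a mean of at least 10 RPM, 28 were at least 2-fold higher and 0 at least 2-fold lower, where 50.7% of all such features and 236 of 312 such copies of other nuclear tRNAs were at least 2-fold higher. The median log2 ratio over the 7 sums was 1.80, beside 1.61 over 43 other nuclear anticodons and 1.02 over all 1036 features at that level.

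Set against total RNA of the same condition, the anticodons differed in size selected RNA. ArgCCG had 0.981 times its total RNA level for control and 2.49 times for withdrawal, and ArgCCT 0.904 and 1.51 times. ArgTCG went the opposite way, with 1.91 and 0.848 times, as did ArgACG with 0.888 and 0.529 times. Both Lys anticodons were above 1 in both conditions, LysCTT at 1.31 and 1.43 and LysTTT at 1.53 and 1.43 times. A length of 25 to 40 nt holds the pieces left by a cut in the anticodon loop and excludes intact tRNA. The files give no read positions, so that 5′ and 3′ fragments were not distinguished.

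**Figure D5:**
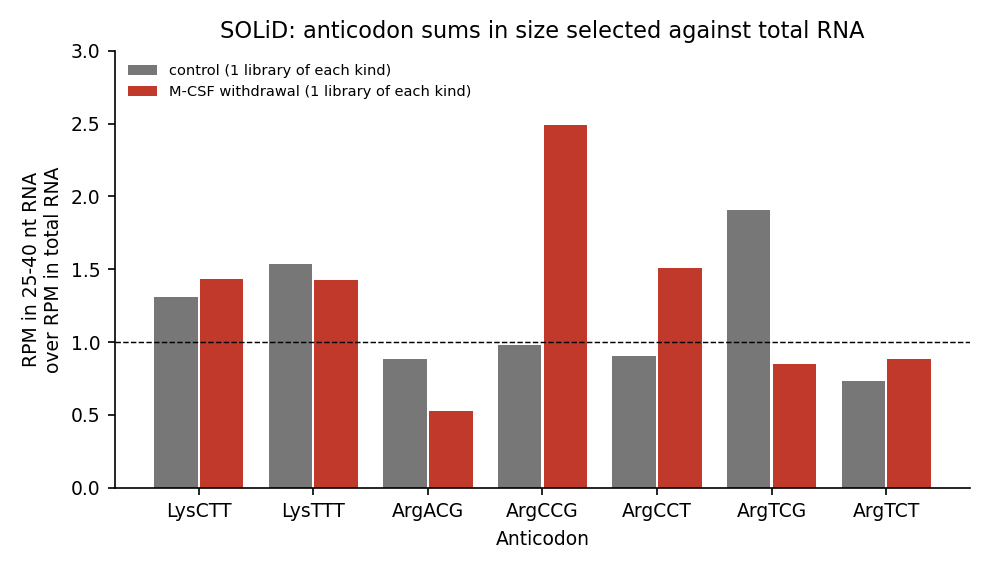
RPM of each anticodon sum in size selected RNA (25 to 40 nt) divided by its RPM in total RNA of the same condition, for control cells (grey) and after M-CSF withdrawal (red), with 1 library of each kind and a dashed line at 1. ArgCCG goes from 0.981 to 2.49 and ArgTCG from 1.91 to 0.848.

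The mitochondrial counterparts, which serve translation inside mitochondria and are transcribed from the mitochondrial genome, rose in the Ion Proton run. All mitochondrial tRNA reads together rose there too, from 0.163% to 1.04% of listed reads (6.40-fold). They rose 7.08-fold in SOLiD total RNA and 3.43-fold in 25 to 40 nt RNA. The tRNA for lysine, mt-Tk, had 6.44 and 1.39 CPM in the controls and 28.5 and 40.6 CPM after M-CSF withdrawal (log2 fold change 3.17, standard error 0.612, adjusted p = 0.0252, edgeR). The tRNA for arginine, mt-Tr, had 7.86 and 5.15 CPM in the controls and 40.9 and 35.2 CPM after M-CSF withdrawal (log2 fold change 2.59, standard error 0.231, adjusted p = 0.00345, edgeR). Both were scarcer than LysCTT and ArgCCT in every library of total RNA. In SOLiD total RNA mt-Tk went from 67.7 to 319 RPM and mt-Tr from 18.7 to 155 RPM. In 25 to 40 nt RNA mt-Tk went from 68.9 to 246 RPM, while mt-Tr had 16.05 and 17.3 RPM.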

How the data were processed

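Small RNA libraries of mouse BMDMs were analysed, 4 from an Ion Proton run and 4 from a SOLiD run. Ion Proton reads were trimmed by the authors with cutadapt 1.2.1, those under 15 bases were dropped, and the rest were mapped to mm10 with Bowtie2 2.2.4 at up to 10 places each. The deposited values are read counts per feature, not normalized. Whether a read placed at several tRNA copies was counted at each is not stated. SOLiD reads were mapped with LifeScope, and RPM over listed features were deposited. Of these values 100% were whole multiples of 1 read within 0.01 reads, so that reads could be recovered. No value column was left unused, and human libraries were not analysed here.

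The quasi-likelihood test of edgeR 4.0.16 (R 4.3.3, TMM factors) was run on Ion Proton counts of features that summed to 5 or more, in 3 tables: features as deposited, nuclear tRNA copies summed by anticodon, and the most-read copy of each anticodon. TMM factors were computed in each table, so that the log2 fold change of a copy differs slightly between them. Both runs were tested with limma 3.58.1 on log2 of CPM or RPM plus 1. Adjustment was by Benjamini-Hochberg across the whole of each table (threshold 0.05). SOLiD ratios (RPM plus 1) have no test; a ratio of at least 2-fold was counted, among features averaging 10 RPM or more, with 95% Wilson intervals. Fits were tested on simulated data with 4-fold changes. Of the Ion Proton calls there, 3.19% to 4.62% were of unchanged features. For the model of both runs, scaled by counted totals as here, this was 19.6% for sums and 25.4% for most-read copies. With the simulated depth known it was 4.3% and 2.86%. The run by treatment term was not tested in this way. DESeq2 1.42.0, other scalings, filters, pseudocounts, voom, a replicate block and leaving out each library were alternatives. Summaries used scipy 1.17.1, numpy 2.4.6 and pandas 2.3.3 in Python 3.11.15, and figures matplotlib 3.10.9.

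Named copies were the most-read of each anticodon and run, those with at least 10% of their anticodon, those averaging 10 CPM or more whose Ion Proton change differed from it in sign, the largest and smallest changes for Lys and Arg among copies averaging 10 CPM or more, and every ArgTCT copy. The members, lists and tests were chosen with earlier results of these data known. Gene positions were matched to GENCODE vM21 and RefSeq (GRCm38).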

Additional observations from a re-analysis of the deposited data

Results flagged for a closer look

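For 5 of the 7 anticodons the change after M-CSF withdrawal differed between the Ion Proton and the SOLiD run by a test of the difference itself, the run by treatment term of limma. The SOLiD change minus the Ion Proton change was 0.93 on the log2 scale for LysCTT, 2.06 for LysTTT, 2.48 for ArgACG, 2.37 for ArgCCG and 1.22 for ArgCCT. Over all features 8.53% were called larger in the SOLiD run, as were 23 of the other 44 nuclear anticodons. The term was chosen after seeing the data, and it takes the spread of the lone SOLiD libraries from the Ion Proton replicates.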

How the results depend on the processing

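Scaling to the reads of other nuclear tRNAs, chosen after seeing the data, turned every sum and most-read copy of the 7 anticodons negative in the Ion Proton run. It called 25 of 53 copies, 5 of 7 sums and 4 of 7 most-read copies, all lower, where 29.7%, 29.9% and 30% of all features were called lower. For LysCTT, LysTTT, ArgACG, ArgCCG, ArgCCT, ArgTCG and ArgTCT in that order, the log2 fold changes were -0.18, -0.77, -0.73, -0.57, -0.75, -0.49 and -0.93 for sums and -0.34, -0.75, -0.61, -0.60, -0.74, -0.15 and -1.02 for most-read copies. TMM factors over miRNA features only moved the median of all features from 0.08 to 0.39 in the table of single features and called 24 copies and 2 sums (LysCTT and ArgCCT), all higher. DESeq2 called 2 sums (LysCTT and ArgCCG). ArgTCT alone changed sign under other settings, to -0.14 with library size only (sum) and -0.053 with DESeq2 (most-read copy).

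The replicate numbers are shared by the groups, but 2 pairs are too few to show a pairing, and the deviations of same-numbered libraries had a Pearson r of 0.02 across 770 features. With a replicate block in edgeR, 0 of 7 sums and 0 of 7 most-read copies were called (2 and 3 at an unadjusted p under 0.05), and 7 features in all were called higher and 0 lower in the table of sums, against 124 and 93 without it. The LysCTT log2 fold change with the block was 0.81 for the sum (adjusted p = 0.0958) and 0.68 for the most-read copy (0.112). The block left 9 of 53 copies called.

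When 1 Ion Proton library was left out, 0 to 1 most-read copies were called, and the ArgTCT log2 fold change ran from -0.15 to 0.36 (sum) and from -0.26 to 0.36 (most-read copy). In the model of both runs, leaving out 1 library gave 0 to 1 calls for sums and 0 to 1 for most-read copies, and ArgTCT ran from -0.11 to 0.43. Leaving out 1 SOLiD library leaves the Ion Proton contrast alone. The count for sums of both runs fell to 0 with a pseudocount of 10 and with a summed count of at least 1, and voom called 2 sums and 2 most-read copies.

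In the SOLiD run the log2 ratio of all Lys and Arg reads was 2.19 in total RNA and 2.41 with most-read copies only. It was 1.76 when centred on the median log2 ratio of a set of 978 features, 0.43. In 25 to 40 nt RNA it was 3.06 and, with most-read copies only, 3.64. Centred on the median of a set of 903 features, 0.90, it was 2.16. Centring turned ArgTCG in 25 to 40 nt RNA to -0.69. The alternative that counts each distinct tRNA sequence once was not run, since the sequences were not at hand. The shares and the Arg to Lys ratio of the Ion Proton run kept their direction in every alternative run.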
